A study of Mus musculus with 4 samples.

Results

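Rcc2 held 49 of the 47777 peaks that eIF4A2 eCLIP gave in mouse embryonic stem cells, and the most enriched of them lay near the 5′ end. They were selected on position, as the peaks whose midpoint fell between positions 140255000 and 140281000 on the plus strand of chromosome 4 (mm9), the span given for Rcc2, which could not be checked against an mm9 annotation here. The gene itself was chosen by the deposited peaks, because it holds one of the longest chains of neighbouring peaks in the list, so the positions and folds below describe it and were not tested. The libraries were 2 IP and 2 input, prepared from J1 cells of strain 129S4/SvJae, which were kept feeder-free in serum and LIF, the cytokine that maintains self-renewal, and were crosslinked with ultraviolet light. The IP libraries were recovered with an antibody against eIF4A2, and the input libraries gave the background of the same kind of cells. All 4 libraries share 1 deposited list, in which every peak has 1 log2 fold (IP over input, as the authors computed it) and no value per library. No spread between replicates, no depth and no error of a fold could therefore be given, and whether both IP libraries held a given peak is unknown.

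Rcc2, also called TD-60, belongs to the family of RCC1, whose members fold as a beta-propeller. It is known from human cells as a protein of the inner centromere and, late in mitosis, of the spindle midzone, and it is needed for the passage of cells through mitosis. It has also been described as a regulator of small GTPases. eIF4A2 is a DEAD-box RNA helicase, a paralog of the translation initiation factor eIF4A1, and has been linked both to initiation and to repression of mRNAs. In eCLIP, ultraviolet light fixes a protein to the RNA that it touches, and the reads of the recovered protein are set against those of the input. Peaks can lie on unspliced as well as on spliced RNA.

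Peaks on the Rcc2 strand lay far from other peaks. The first Rcc2 peak began at 140258062, 3.06 kb inside the window, and the last ended at 140277240, 3.76 kb before the window's end. The nearest other peaks on the plus strand lay 1061.1 kb before the first and 198 kb after the last. On the minus strand the window held 0 peaks, and the nearest lay 53.4 kb before and 40.3 kb after the Rcc2 peaks. Moving the window's edges outwards by 5000 bases on each side added no peak.

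The annotation at hand, GENCODE M21, is on another build (GRCm38), so it was used only for lengths and neighbours. There Rcc2 (ENSMUSG00000040945.13) is a plus-strand gene spanning 22.68 kb, and the Rcc2 peaks spanned 19.2 kb. One of its protein-coding transcripts spans 21.7 kb and has 13 exons, with 3.77 kb of exon sequence in all and a last exon of 2121 bases. Its longest intron, of 5.52 kb, is numbered 2 from the 5′ end. In another, with 15 exons over 22.68 kb, the longest intron has the same length and is numbered 4. The protein-coding genes on either side, Arhgef10l and Padi6, are on the minus strand. A lincRNA gene, Gm13025, and a miRNA gene, Gm23045, come before Rcc2 on the plus strand. A predicted miRNA gene, Gm25951, overlaps Rcc2 on the same strand, and reads from it could not be told apart from those of Rcc2.

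The folds of the Rcc2 peaks had a lower median than those of the list. The median log2 fold of the 49 peaks was 1.46, or 2.76-fold, and the interquartile range was 1.29 to 1.79, against a median of 1.65 and an interquartile range of 1.29 to 2.07 over all 47777 peaks. The list holds no fold at or below 2, so both medians describe peaks beyond that limit only. At 4-fold or more (log2 2) there were 7 of the 49 Rcc2 peaks, or 14.3%, against 28.3% of the list. At 8-fold or more (log2 3) there was 1 Rcc2 peak, or 2.04%, against 4.03% of the list. Rcc2 peaks were chosen with these folds known, so nothing is read from the shares. Of the 49 peaks, 35 lay below the median of the list.

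The peaks were unevenly spread along the span. Joining peaks up to 1000 bases apart gave a 5′ stretch of 32 peaks, which began with the first Rcc2 peak and ended at 140266319. The longest gap inside it was 834 bases, and the next peak came 1655 bases after its end. The other 17 peaks lay further 3′, between 140267975 and 140277240. The 5′ stretch spanned 8.26 kb and held 3.88 peaks per kb, against 1.83 peaks per kb over the 9.27 kb of the rest. Peaks covered 15.2% of the bases of the 5′ stretch and 4.32% of those of the rest. The span of the rest includes the gaps above 1000 bases between its groups of peaks, which the joining rule keeps out of the stretch. Its lower density and coverage thus follow in part from the split. The 5′ stretch was longer than the 4.16 kb of all annotated Rcc2 exons merged, a comparison of lengths only, since no peak was placed on an exon or an intron.

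**Figure D1:**
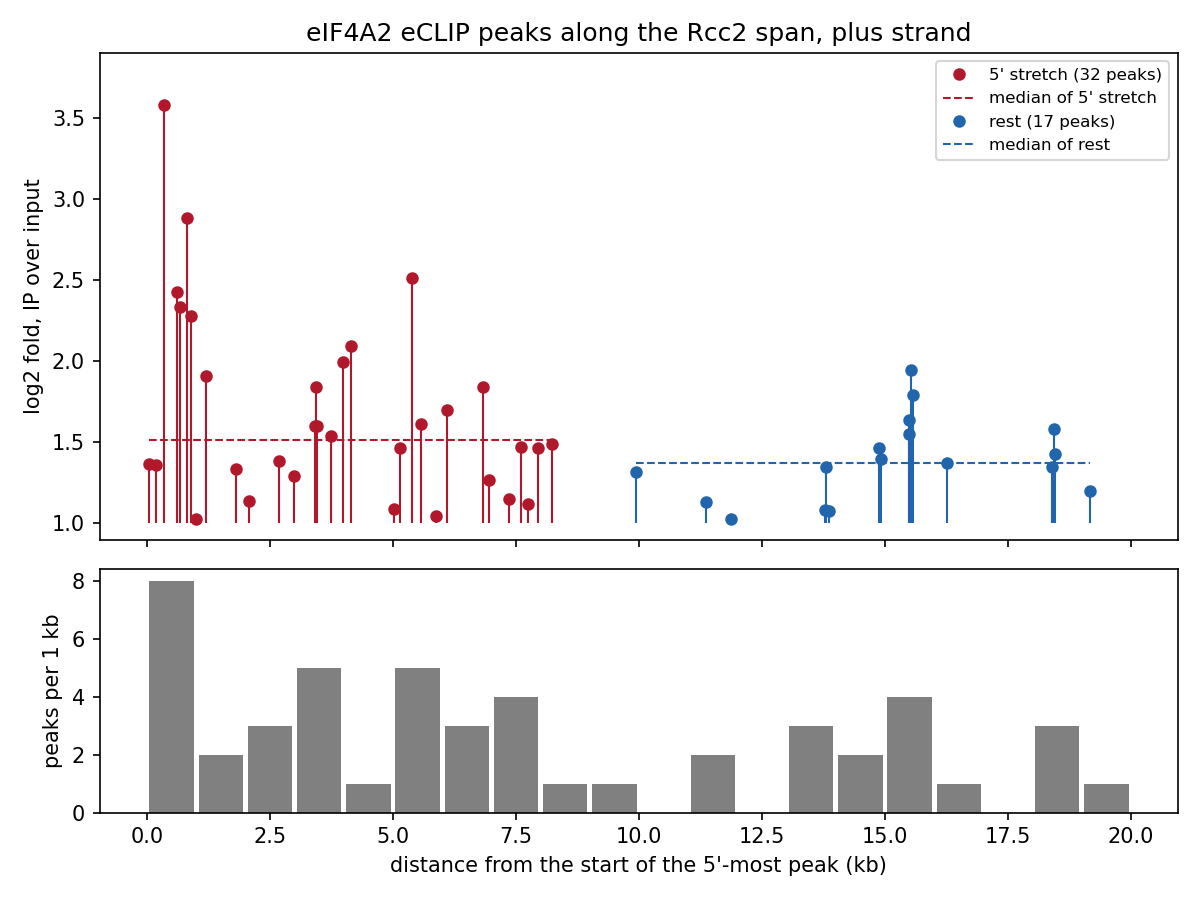
Upper panel, log2 fold of IP over input (y axis) of each Rcc2 peak against its distance in kb from the start of the first peak (x axis), with lines rising from 1, the limit of the list, and dashed lines at the medians, 1.52 in the 5′ stretch and 1.37 in the rest. Lower panel, number of peaks in each 1 kb bin of the same axis; the first bin holds 8 peaks and the highest fold, 3.58, and 3 bins beyond 10 kb are empty.

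The strongest enrichment lay in the first 1.2 kb. There, 9 peaks followed each other with gaps of 17 to 189 bases, from 140258062 to 140259264, and covered 34% of that distance. Their median log2 fold was 2.28, against 1.45 for the 40 Rcc2 peaks further 3′. They included 5 of the 7 Rcc2 peaks at 4-fold or more. These 5 were 55.6% of the 9, against 28.3% of the list, in a group picked with its folds known. A gap of 604 bases separated the 9 peaks from the peak after them. These 9 are also what the 5′ stretch becomes when peaks are joined only up to 200 or up to 500 bases apart.

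Within those 9 peaks the folds differed widely. The first, at 140258062 to 140258126, had a log2 fold of 1.37, and the next, at 140258222 to 140258269, had 1.36. The third, 29 bases wide at 140258400 to 140258428, had 3.58, the highest of Rcc2 and above 99.1% of the list. The fourth, at 140258618 to 140258705, was the widest of Rcc2 at 88 bases and had a log2 fold of 2.43. It was followed by a peak of only 6 bases at 140258728 to 140258733, with 2.33. A log2 fold of 2.88 (7.38-fold), the second highest of Rcc2, was given for 140258848 to 140258901. A peak of 79 bases at 140258919 to 140258997 followed 17 bases later, with 2.28. The 5 peaks in a row from 140258400 to 140258997 were thus all at 4-fold or more. Next came the lowest fold of all Rcc2 peaks, a log2 fold of 1.02 at 140259042 to 140259056, only 44 bases beyond the last of those 5. The ninth peak, at 140259240 to 140259264, had 1.91. High and low folds were thus near neighbours, and the fold did not fall evenly from the first peak onwards.

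Beyond the first 1.2 kb, the 5′ stretch still held more peaks per kb than the whole span of the rest, long gaps included. The remaining 23 peaks of the stretch, from 140259869 onwards, had a median log2 fold of 1.47, against 1.37 for the 17 peaks of the rest. They held 3.57 peaks per kb, against 1.83 per kb in the rest. Of these 23, 2 were at 4-fold or more, or 8.7%, against 28.3% of the list. One covered 140263419 to 140263482 with a log2 fold of 2.51, the third highest of Rcc2, and the other covered 140262192 to 140262233 with 2.09. The narrowest Rcc2 peaks were also here. One of 3 bases at 140261048 to 140261050 had a log2 fold of 1.29, and another of 3 bases at 140262036 to 140262038 had 1.99. The last peak of the stretch, at 140266281 to 140266319, had 1.49.

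Taking the whole 5′ stretch, its median log2 fold was 1.52 (interquartile range 1.32 to 1.93), against 1.37 (1.2 to 1.55) for the rest. The log2 folds ran from 1.02 to 3.58 in the stretch and from 1.03 to 1.95 in the rest, so the range of the rest lay within that of the stretch. At the upper end, 8 of the 32 peaks of the stretch exceeded the highest fold of the rest. At the lower end, 11 of the 32 lay below the median of the rest. All 7 peaks at 4-fold or more were in the stretch, where they made up 21.9% of the peaks, against 28.3% of the list. Of the 17 peaks of the rest, 0 reached that level. The median of the stretch lay below the 1.65 of the list, as did 20 of its 32 peaks. The median of the stretch exceeded that of the rest by 0.14 with the stretch as defined. The difference was 0.84 with the 9 peaks of the first 1.2 kb in the stretch's place. It was 0.07 when joining up to 2000 bases made the stretch 45 peaks. The size of the difference thus depends on where the stretch is taken to end.

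The rest consisted of small groups of peaks with wide gaps between them. The longest gap of the span, 2134 bases, lay here, and the next longest were 1885, 1655, 1400 and 1003 bases, all on the 3′ side of the stretch or at its end. The gap of 1003 bases was only just too long to be joined. The 17 peaks formed groups of 1, 2, 3, 7 and 4 peaks, from 5′ to 3′. Within the groups of 2, 3, 7 and 4 there were 3.73, 28.8, 5.04 and 5.12 peaks per kb, against 3.88 in the 5′ stretch. The group of 3 spanned only 104 bases, and touching peaks were counted singly in the groups of 3, 7 and 4. Densities over so few peaks are thus not on a like footing with that of the stretch.

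The highest folds of the rest lay in 1 block. It consisted of 4 peaks that touched end to end from 140273544 to 140273642, with no base between them over 99 bases. Their log2 folds were, from 5′ to 3′, 1.55, 1.64, 1.95 and 1.79. The first of the 4, 5 bases wide, was the narrowest of the rest, and the last, 43 bases wide, was as wide as the widest. These were 4 of the 5 highest folds of the rest. The other of the 5 was 1.58 at 140276471 to 140276510, the middle of 3 touching peaks that covered 67 bases from 140276460 to 140276526. The lowest fold of the rest was 1.03 at 140269903 to 140269945, 43 bases wide. The 5′-most peak of the rest, at 140267975 to 140268009, had 1.31, and the 3′-most peak of Rcc2, at 140277207 to 140277240, had 1.2.

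Touching peaks were mostly a feature of the rest. Of its 16 pairs of neighbours 6 touched end to end, against 1 of 31 pairs in the 5′ stretch. The touching pair of the stretch lay at 140261461 to 140261499, with log2 folds of 1.6 and 1.84. Over all of Rcc2, 14.3% of peaks touched the peak before them, against 3.84% of the whole list. These shares are not on a like base. By the same joining rule the 47777 peaks of the list formed 31595 stretches, so many had no near neighbour to touch. Rcc2, in contrast, was picked for its chain of neighbours. No share was computed for list peaks with a near neighbour, so nothing is read from the comparison with the list. The share of touching peaks was 3.13% in the 5′ stretch alone. In the 4 other long stretches described below it was 4.26% (chromosome 11), 0% (chromosome 10), 16.7% (chromosome 17) and 0% (chromosome 8). Touching peaks were thus not particular to Rcc2. Merging peaks up to 50 bases apart left 27 peaks in the stretch and 9 in the rest, so touching or nearly touching peaks made up a larger part of the count in the rest.

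**Figure D2:**
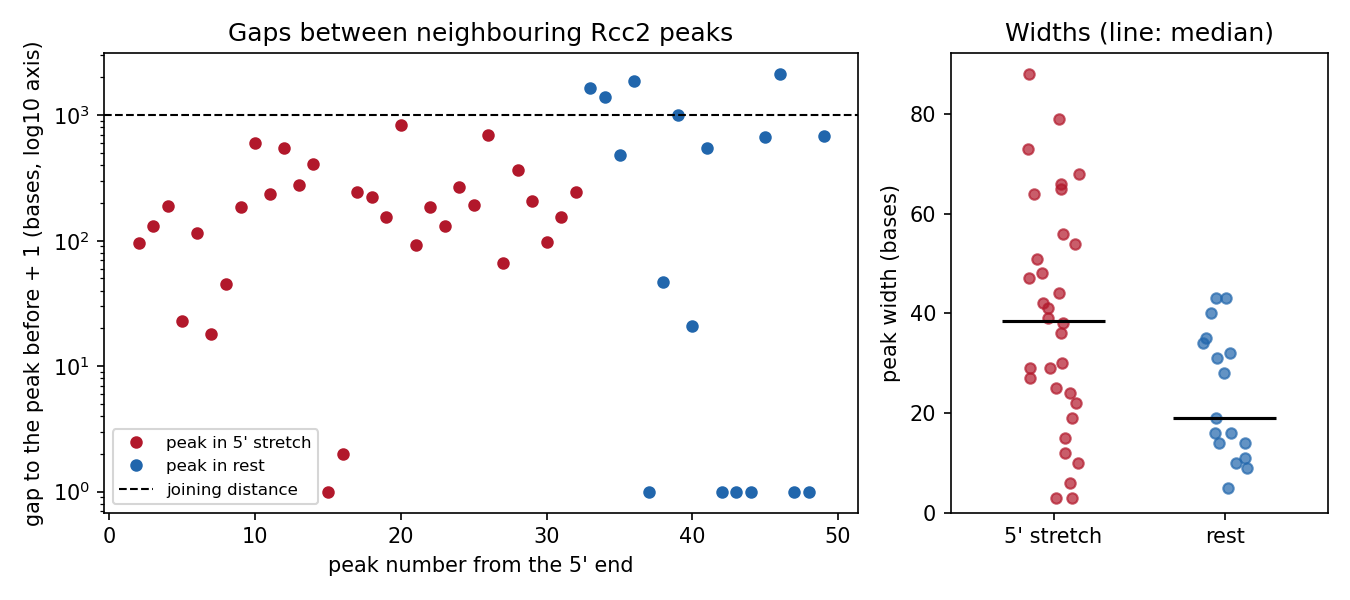
Left, gap in bases to the peak before plus 1, on a log10 axis, for Rcc2 peaks numbered from the 5′ end, with the joining distance of 1000 bases dashed; the 7 touching pairs sit at 1, and the 5 gaps above the line belong to peaks of the rest. Right, width in bases of each peak in the 5′ stretch and in the rest, with the medians of 38.5 and 19 bases as lines.

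Peaks were wider in the 5′ stretch, with a median of 38.5 bases and a range of 3 to 88 bases, against a median of 19 bases and a range of 5 to 43 bases in the rest. The median of the whole list was 32 bases. In the rest, 9 of the 17 peaks were pieces of 3 touching runs that spanned 44, 99 and 67 bases. The stretch had 1 such run, of 2 peaks over 39 bases. The widths of the rest thus depend on where the list divides its runs. A width of at least 20 bases was met by 25 of the 32 peaks of the stretch and by 8 of the 17 of the rest. Wide peaks were found at high and at low folds. The widest of Rcc2, described above, had a log2 fold of 2.43, whereas a peak of 73 bases at 140260700 to 140260772 had 1.38.

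The 5′ stretch of Rcc2 was set beside the other 4 stretches with the most peaks in the list, all on plus strands. These were on chromosome 11 from 117867071 (47 peaks), chromosome 10 from 80602808 (36 peaks), chromosome 17 from 23952395 (36 peaks) and chromosome 8 from 123077232 (34 peaks). The Rcc2 stretch held 3.88 peaks per kb, the third highest density of the 5. Those on chromosomes 11 and 17 were denser, with 4.24 and 5.97 peaks per kb, and those on chromosomes 10 and 8 were sparser, with 3.58 and 3.67 peaks per kb. Its median gap of 183 bases was the second widest, after the 197 bases of the chromosome 10 stretch. Among the 172 stretches of 10 or more peaks in the list, Rcc2 was more loosely packed than most. Of these, 127 held more peaks per kb (median of all 172, 5.3), 117 had a larger part of their bases covered, and 132 had a shorter median gap (median of all 172, 99 bases).

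Of these 5 stretches, Rcc2 was the one with its higher folds at the 5′ end. The 8 peaks that make up the 5′-most 25% of its stretch had a median log2 fold of 2.31, against 1.48 for the other 24, a difference of 0.83; no test was run. The same difference was -0.36 for the stretch on chromosome 11 and -0.46 for that on chromosome 8. It was -0.12 for chromosome 17 and -0.03 for chromosome 10, so in none of these 4 was the median of the 5′ end the higher one. Among the same 172 stretches, 7 had a larger difference than Rcc2 and 164 a smaller one, and their median was -0.03. These stretches had a median of 12 peaks, and 167 had fewer than the 32 of Rcc2, so most of these differences rest on fewer peaks. The 5′ end of a stretch is where the joining stopped and need not be that of a transcript. The 25% was chosen after the profile of Rcc2 had been seen. The median log2 fold of the Rcc2 stretch was exceeded by that of 135 of the 172.

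**Figure D3:**
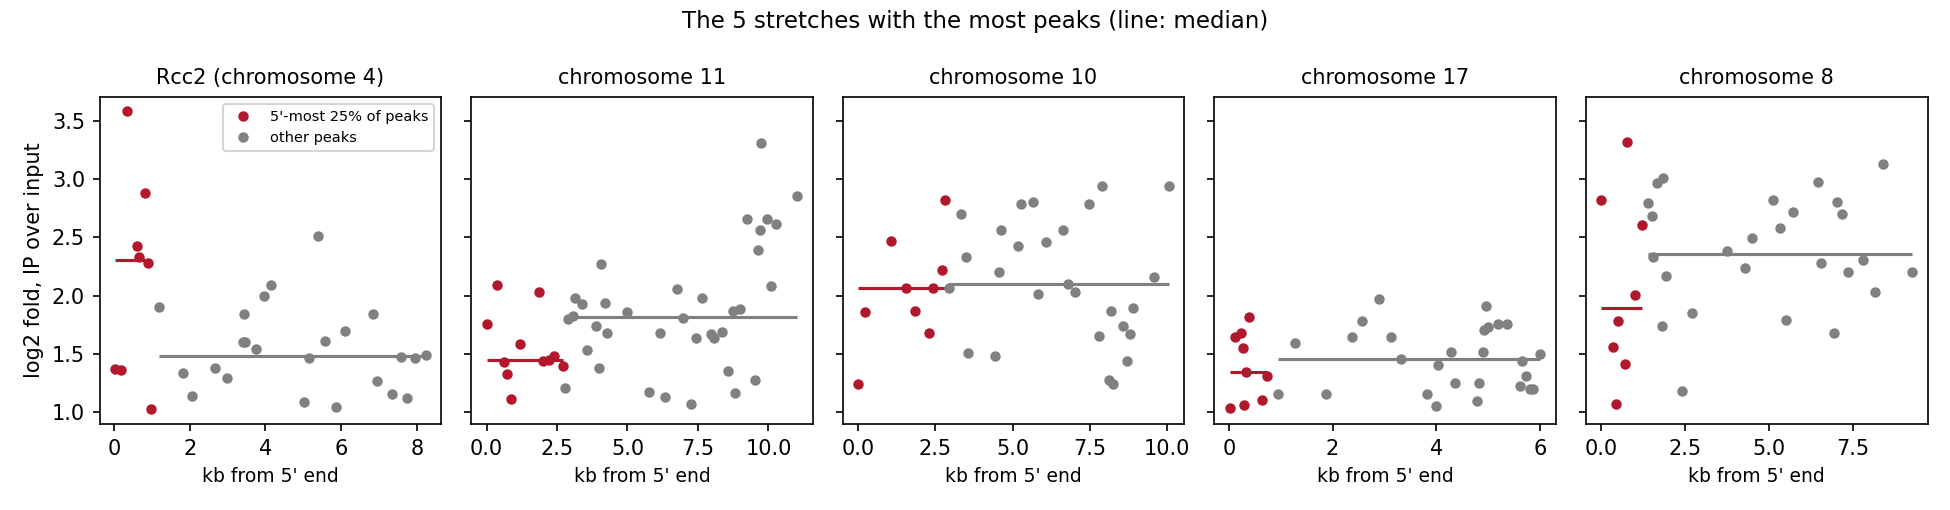
Log2 fold of IP over input (y axis, the same in all panels) against distance in kb from the 5′ end (x axis) for the 5 stretches with the most peaks, with the 5′-most 25% of peaks in red, the others in grey and lines at the median of each. In Rcc2 the red median, 2.31, lies above the grey one, 1.48, whereas on chromosomes 11, 10, 17 and 8 the red median lies below the grey one.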

How the data were processed

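eCLIP libraries from J1 mouse embryonic stem cells (2 IP, 2 input) had been combined by the authors into 1 list of peaks. The submitters' processing notes name cutadapt 1.18, STAR 2.6.1b and the build mm9. How peaks were called and filtered, and how replicates were combined, is not given in the sources used. The deposited values are log2 folds, IP over input, 1 per peak, and the log2 scale was read from the values, all above 1, since the list has no header. A peak belonged to Rcc2 when its midpoint lay between positions 140255000 and 140281000 on the plus strand of chromosome 4. Starts were changed to count from 1. Peaks were joined into a stretch when the gap between them was at most 1000 bases.

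The members, the split and the comparisons were chosen with earlier results of these data known, and peaks are not replicates, so no test was run. The peaks named singly were, in the 5′ stretch and in the rest, the 5 highest folds, the lowest, the widest, the narrowest and both end peaks, with the longest gaps; all other features were picked with their values known. Alternatives were a log2 fold of at least 2, a width of at least 20 bases, merging within 50 bases, other window edges and joining distances of 200, 500 and 2000 bases. Depth and the error of each fold are unknown, because the list gives no counts. No mm9 annotation or sequence was at hand, so peaks were not placed on exons. Lengths and neighbours of Rcc2 are from GENCODE M21 (GRCm38). The joining and ratio procedures were run on simulated lists, with chains set far apart and the constant of the ratios known. This checks the code only, not the choice of the joining distance or of the constant. Python 3.11.15 with numpy 2.4.6, scipy 1.17.1, pandas 2.3.3 and matplotlib 3.10.9 was used.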

Additional observations from a re-analysis of the deposited data

How the results depend on the processing

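Of 30 alternative values, 23 stayed within the set range (1.5 times for a count, 0.1 for a log2 median, the Wilson 95% interval for a share). The Wilson interval treats peaks as independent, which neighbours along 1 span need not be, so it served only as an allowance. The 23 include values that could not move, among them all those under other window edges, or that did not involve the rest, as given below. A minimum log2 fold of 2 left 7 Rcc2 peaks, with a median log2 fold of 2.43, and that limit acts on the fold itself. Joining these 7 anew gave a shorter stretch of 5 peaks, from 140258400 to 140258997. The other 2 also lie in the 5′ stretch as first defined, so the difference of 0.13 at that limit does not involve the rest. Joining up to 200 or up to 500 bases apart left 9 peaks in the 5′ stretch and moved its difference in median log2 fold from the rest from 0.14 to 0.84 in both cases, because both then end at the same gap. A width of at least 20 bases left 33 Rcc2 peaks, and merging within 50 bases left 36. Joining up to 2000 bases lowered the difference to 0.07, which the allowance of 0.1 counts as unchanged. The window's edges changed nothing and could not. Rcc2 peaks lay 3.06 kb or more inside them, and the nearest other plus-strand peak lay 198 kb from the Rcc2 peaks. No replicate could be left out, and no paired analysis was possible because the list has no values per library. What sequencing depth limits here is not known, since the list gives no counts.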

Other observations

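After subtracting 0.24 on the log2 scale, the commonest value of the list read as a ratio of 2 to 1, nearly every fold could be written as 1 whole number over another of at most 200 (relative tolerance 1e-07; 19 of 47777 peaks could not). The denominators, in lowest terms, had a median of 29 in Rcc2 and of 4 in the list, and were at most 10 for 9 of the 49 Rcc2 peaks, against 75.6% of the list. All 49 Rcc2 values had such a ratio, with denominators of 3 to 82. The highest Rcc2 fold was 71 to 7, and that of the peak starting at 140258919 was 247 to 60. The other long stretches had median denominators of 20 (chromosome 11), 9.5 (chromosome 10), 75 (chromosome 17) and 7 (chromosome 8), and among the 172 stretches of 10 or more peaks 41 had a higher median than the 27 of the Rcc2 5′ stretch. A large denominator is thus not particular to Rcc2. These ratios were not taken as read counts, since they are in lowest terms and the counts behind them are not known.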
